A study of Mus musculus with 27 samples.

Results

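Interferon-stimulated genes are switched on when a cell senses interferon, a secreted signal of infection and tissue damage. The 33 genes described here were found by their names in a list drawn up with earlier results of these data known, and each had 1 row in both deposited tables, which list 55852 entries for injured muscle and 55677 entries for the comparison with control muscle. RNA was sequenced from mouse muscle after injection of cardiotoxin (CTX), which comes from snake venom and destroys muscle fibres that later regenerate. The 24 injured libraries came from male WT (C57BL/6J) mice and male Gsdme KO mice on day 1, 4, 7 or 14 (D1, D4, D7, D14) after CTX, in triplicate for each genotype at each time. Another 3 libraries came from WT muscle without CTX (control). Gsdme encodes gasdermin E, which forms pores in the cell membrane after cleavage by a caspase. The KO is global, so that it targets every cell type and not muscle or immune cells alone. The titles say KO and the genotype field of the same libraries says Gsdme knockdown, so that KO stands here for libraries with that word in their title. The study's methods name gastrocnemius with contralateral control muscle, whereas the deposited design names thigh muscle and an unloaded control. Values are TPM (a share of the library's transcripts, corrected for gene length), and differences are means of log2(TPM + 1) from limma with their SE.

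Type I interferons bind the receptor made of Ifnar1 and Ifnar2, which activates the kinases Jak1 and Tyk2. Stat2 and Irf9 then act in a complex (ISGF3) that binds the interferon-stimulated response element (ISRE) in promoters, whereas interferon gamma acts mainly through GAS elements. Many of the induced proteins sense or block viral RNA and DNA, and others, such as Usp18, damp the signal. In injured muscle such genes can be expressed by infiltrating leukocytes, by endothelial cells and by muscle cells themselves. Muscle was sequenced in bulk, so that more cells of a type and more RNA per cell cannot be told apart.

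Promoter sequences were searched for the core of the ISRE. RefSeq promoter windows of the same genome build (GRCm38.p6), which run from 250 bases before to 50 bases after each start site, were found for 26 of the 33 members. The core searched was GAAANNGAAA on either strand. It was present in the window of 16 of the 26 members (61.5%), whereas 3.99% of all 27025 genes with a window and 3.44% of all 32851 windows held it. The GAS-type core TTCNNNGAA, which reads the same on both strands, was present in 9 of the 26 members (34.6%) and in 9.55% of all genes (8.3% of all windows). The members with the most ISRE cores upstream of the start site are shown, with the cores in capitals and 20 flanking bases where the upstream part of the window allowed. Overlapping cores are counted separately.
Isg15 (chr4:156200855-156200916, - strand): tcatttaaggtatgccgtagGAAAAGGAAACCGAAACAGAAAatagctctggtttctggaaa
Ifit1 (chr19:34640765-34640833, + strand): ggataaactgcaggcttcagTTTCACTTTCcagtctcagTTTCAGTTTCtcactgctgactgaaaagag
Ifit3 (chr19:34583353-34583436, + strand): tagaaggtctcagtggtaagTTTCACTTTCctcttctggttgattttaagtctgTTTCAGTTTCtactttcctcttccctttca
Oas1a (chr5:120907526-120907565, - strand): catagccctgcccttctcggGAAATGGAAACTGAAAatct
Bst2 (chr8:71537567-71537622, - strand): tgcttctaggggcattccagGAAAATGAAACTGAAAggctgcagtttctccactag
Gbp3 (chr3:142559979-142560034, + strand): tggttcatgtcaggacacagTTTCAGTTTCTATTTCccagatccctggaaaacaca
Each sequence reads 5′ to 3′ on the strand of its gene and ends upstream of the start site, and the Oas1a stretch ends at the base before it. Isg15 held 3 overlapping cores on the strand of the gene, and Oas1a and Bst2 held 2 overlapping cores each on that strand. Ifit1 and Ifit3 held 2 separate cores each in the opposite orientation, and Gbp3 held 2 overlapping cores in that orientation. Ifitm3 also had 2 cores, both downstream of its start site. No core was found in these windows for Irf7, Irf1, Irf9, Ifit2, Oasl2, Ifi44, Ifi35, Xaf1, Cmpk2 or Slfn2, which says only that these letters are not in these 300 bases. A match is a description and not a binding site.

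The targeted gene was examined first to check the labels. Gsdme was at 2.76, 4.85 and 3.16 TPM in WT D1 and at 1.53, 1.28 and 2.17 TPM in KO D1. The genotypes did not overlap on D1, D4 or D7 and overlapped on D14, where WT was at 1.46, 2.21 and 2.26 TPM and KO at 1.96, 1.77 and 1.27 TPM. Averaged over days, the KO minus WT difference was -0.55 ± 0.09 (adjusted p = 0.0664, and exact two-sided permutation within days, p = 8.75e-05). Gsdme transcript was thus lower and not absent in the libraries labelled KO. The deposited TPM carry no read number, so that the depth is unknown. Genes of at least 1 TPM numbered 11785 to 14704 per library. Within some groups, nearly all members shared a library order. WT D1 replicate 2 was the highest and replicate 3 the lowest of WT D1 in 33 of 33 members. WT D4 replicate 1 and KO D4 replicate 1 were each the highest of their group in 33, and KO D4 replicate 2 and KO D7 replicate 2 were the lowest in 31 and 33. In other groups the order was mixed. Replicates 1, 2 and 3 were the highest in 10, 7 and 16 members in WT D7 and in 15, 12 and 6 in control. The methods describe a sequencing batch with injured and control muscle at 24 h and another with both genotypes at all times. Both tables hold the WT D1 libraries (91 of 99 member values within 5% of each other), and the batch they belong to is not given. Batch thus cannot be told apart from injury, from genotype at D1 or from the WT change between D1 and D4. The genotype average over days and the test of its variation between days also use WT D1 and share this limit.

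Interferon-stimulated genes were higher 1 day after CTX than in control muscle across all their roles. All 33 members passed the filter on low values in both tables. Of these, 32 rose in WT D1 (adjusted p under 0.05 over the 13041 genes tested), the exception being Gbp7, and none fell. This stands beside 55.4% of all genes tested that were higher. The 3 WT D1 libraries lay above the 3 controls in 33 of 33 members and in 64.2% of all genes. The median difference of the members was 2.08, against 0.66 for all genes tested. Under scalings that hold the median of all genes near 0, the members' median was 1.43 (median of ratios, 28 called) and 1.30 (quantile, 27 called). Of 13041 genes, these scalings called 2770 and 2553 higher and 2763 and 2673 lower. The 16 members with an ISRE core in their promoter window had a median of 2.22 and the 10 without one a median of 1.59, with overlapping ranges (0.64 to 3.87 and 1.06 to 3.58).

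The transcription factors that carry the interferon signal rose together. Irf7 (ENSMUSG00000025498), which amplifies interferon production, was at 6.19, 6.67 and 5.23 TPM in control and at 80.7, 158 and 44.6 TPM in WT D1, a difference of 3.58 ± 0.39 (adjusted p = 0.0011). Stat2, the ISGF3 subunit with the activation domain, rose from 4.9, 3.75 and 4.24 TPM to 18.3, 29.7 and 11.9 TPM, by 1.90 ± 0.31. Irf9, the DNA-binding subunit, rose by 1.59 ± 0.36, and Irf1, a factor induced by interferon gamma and by inflammatory cytokines, rose by 1.08 ± 0.28 from 10.6, 8.63 and 7.95 to 19.98, 29.8 and 13.7 TPM. Thus the gain of Irf7 was larger on this scale than that of each ISGF3 subunit, and no test between genes was run.

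Isg15 (ENSMUSG00000035692), a ubiquitin-like protein that is conjugated to other proteins, was at 5.07, 6.8 and 4.57 TPM in control and at 67.96, 141 and 47.6 TPM in WT D1 (3.60 ± 0.36, adjusted p = 0.000988). Usp18, which removes Isg15 from proteins and blocks the receptor, rose by 2.08 ± 0.34 from 3.45, 3.36 and 3.05 to 16.1, 29.6 and 10.4 TPM. The IFIT proteins bind foreign RNA. All 3 rose, with Ifit1 at 0.39, 0.77 and 0.69 TPM in control and 6.82, 13.3 and 5.33 TPM in WT D1 (2.47 ± 0.31), Ifit3 higher by 2.66 ± 0.33 and Ifit2 by 1.54 ± 0.29. The OAS proteins make the oligoadenylate that activates RNase L. All 4 rose, and Oas1a went from 2.17, 1.84 and 1.57 TPM to 41.9, 80.5 and 19.9 TPM (3.87 ± 0.43). Oasl2, an OAS-like protein with ubiquitin-like domains, rose by 3.44 ± 0.39, Oas3 by 2.84 ± 0.40 and Oas2 by 2.55 ± 0.36. Oas1a, Oas3 and the Ifit genes have close paralogs, and reads shared between copies may have been split between them.

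Zbp1 (ENSMUSG00000027514), a sensor of Z-form nucleic acid that can start necroptosis, had the largest difference of the members. It was at 0.44, 1.13 and 0.63 TPM in control and at 39.05, 73.6 and 18.5 TPM in WT D1 (4.50 ± 0.44, adjusted p = 0.00089). Eif2ak2, the RNA-activated kinase PKR, rose by 1.98 ± 0.34 and Ifih1, the cytosolic RNA sensor MDA5, by 1.52 ± 0.30 from 0.95, 0.98 and 1.01 to 4.78, 7.52 and 2.7 TPM. The 6 antiviral effectors all rose, among them Trim30a (2.63 ± 0.40), between 1.06 (Cmpk2) and 2.97 (Mx1). Among them Ifitm3, which blocks viral fusion in endosomes, was the most abundant member, with 121, 129.8 and 116 TPM in control and 896, 1552 and 539 TPM in WT D1 (2.88 ± 0.34). Bst2, which tethers virions to the cell surface, followed with 35.6, 35.6 and 24.3 and 244, 408 and 144 TPM (2.91 ± 0.35), and Rsad2 (viperin) rose by 1.83 ± 0.39. Control and WT D1 libraries were well separated in each of these genes, and WT D1 replicate 2 was the highest library in each.

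The guanylate-binding proteins, GTPases that are best known as targets of interferon gamma, had the lowest median of the roles. Gbp3 rose by 1.86 ± 0.24, Gbp5 by 0.72 ± 0.19 and Gbp2 by 0.68 ± 0.24. Gbp2 was at 6.5, 6.6 and 5.2 TPM in control and 10.6, 13.5 and 7.67 TPM in WT D1, and Gbp5 at 1.3, 1.46 and 1.27 and 3, 3.19 and 2.44 TPM. Gbp7 was at 3.13, 2.15 and 1.45 TPM in control and 3.46, 5.29 and 3.28 TPM in WT D1 (difference 0.64 ± 0.27, adjusted p = 0.0656). The median of these 4 genes was 0.70, close to the 0.66 of all genes tested, whereas the OAS family had a median of 3.14. Under quantile normalization the Gbp7 difference was -0.12. The other 7 members also rose, led by Slfn2, a regulator of T cell and monocyte quiescence, from 5.32, 5.04 and 4.42 to 71.8, 131 and 27.3 TPM (3.45 ± 0.47). Ifi27, an interferon alpha-inducible membrane protein, rose by 1.43 ± 0.19 and Ifi35 by 1.40 ± 0.22. The remaining 4 of these were Rtp4 (2.92 ± 0.40), Xaf1 (2.27 ± 0.36), Parp14 (1.78 ± 0.32) and Ifi44 (1.59 ± 0.38).

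**Figure D1:**
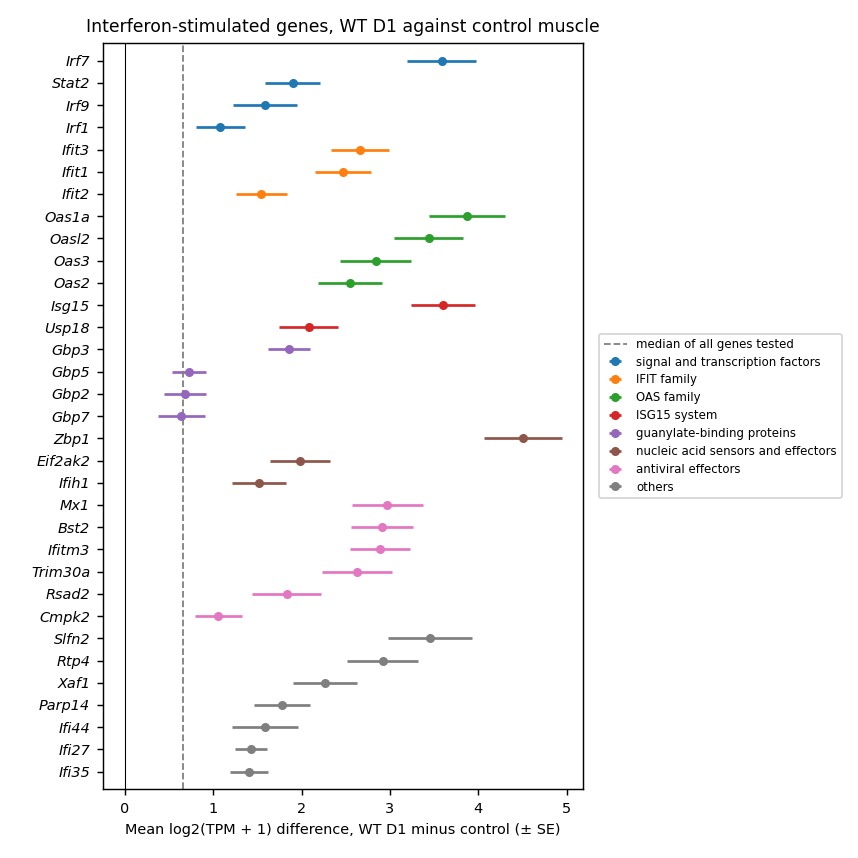
Difference in mean log2(TPM + 1) between WT D1 and control muscle for the 33 members, grouped by role. Points are differences over 3 against 3 libraries, bars are the SE from limma and the dashed line is the median of all genes tested (0.66). Zbp1 lies farthest right at 4.50, and Gbp2, Gbp5 and Gbp7 lie near the dashed line.

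The interferon genes themselves were barely detected. Of 19 interferon genes examined, 13 were listed at 0 in all 24 injured libraries, and Ifnb1, the interferon beta gene, was above 0 in 1 of them, at 0.17 TPM. Ifng (interferon gamma) was the single interferon gene to reach 1 TPM, with a highest value of 1.33 TPM and 0 TPM listed in 8 of the 24. Of 10 receptor and signalling genes, 9 were tested and 6 rose at WT D1, where 55.4% of all genes did. Among them were Il10rb (2.14), Ifnar2 (1.89), Ifnar1 (1.68), Tyk2 (1.36) and Jak1 (0.52), the last by less than the median of all genes. The interferon gamma receptor chains Ifngr1 (0.67, adjusted p = 0.0658) and Ifngr2 (0.36, adjusted p = 0.138) did not pass the threshold, and differences between receptor chains were not tested.

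Of all genes tested, 55.4% rose at WT D1, which stands beside each count that follows. Of 16 nucleic acid sensors and adaptors, 15 were tested, 14 rose and 1 fell. The largest gains were those of Dhx58 (3.18), a RIG-I-like helicase, Irf5 (2.72), Myd88 (2.62), the adaptor of most Toll-like receptors, and Tlr7 (2.56), a sensor of single-stranded RNA. The gene that fell was Mavs (-0.57, adjusted p = 0.0455), the mitochondrial adaptor of RIG-I and MDA5. Of 10 negative regulators, 8 rose, led by the phosphatase Ptpn6 (3.56) and the JAK inhibitor Socs3 (3.42). Of 51 other interferon-induced genes looked for, 44 were tested, 40 rose and 1 fell. The largest gains were those of Oas1g (3.62), Ifitm1 (3.38), Ifi204 (3.20) and Ifi27l2a (3.03), and Gbp10 fell (-1.73).

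Markers of leukocytes rose in the same comparison. All 10 leukocyte markers, all 12 monocyte and macrophage markers and the 7 neutrophil markers that were tested rose at WT D1, where 55.4% of all genes did. The summed leukocyte markers went from 58.3 to 71.01 TPM per library in control to 530.4 to 2792 TPM in WT D1, and the summed monocyte and macrophage markers from 214 to 279 TPM to 995 to 4236 TPM. The median differences of these lists were 4.01 and 3.15, above the 2.08 of the members. Of 10 endothelial markers, 3 rose and 1 fell, and the summed mature myofibre markers went from 193522 to 208419 TPM to 99699 to 204507 TPM. Of 8 markers of plasmacytoid dendritic cells, which are a main source of type I interferon, 3 were tested. Il3ra (2.30) and Tcf4 (1.34), which other cells also express, rose, and Cox6a2 (-0.89), which muscle fibres also express, fell. Siglech, a defining marker of these cells, was at no more than 0.29 TPM in control and 1.84 TPM in any injured library. The part of these cell types in the members' rise was not tested.

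The members had their highest means on D1 or D4 in most cases and were lowest on D14. In WT muscle, the group mean TPM was highest on D1 in 18 members, on D4 in 11 and on D7 in 4, and it was lowest on D14 in all 33. Irf7 was at 80.6, 158 and 44.5 TPM on D1, 121, 75.9 and 67.03 on D4, 30.8, 35.2 and 31.1 on D7 and 5.49, 10.1 and 6.96 TPM on D14. Isg15 was at 67.9, 141 and 47.5 TPM on D1, 108, 59.3 and 73.3 on D4, 35.3, 36.9 and 43.9 on D7 and 6.35, 8.54 and 8.57 TPM on D14. In both genes D1 and D4 overlapped, D7 lay below every D4 library, and D14 lay below every D7 library.

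From D1 to D4 in WT muscle, 1 member was called. Ifi27 rose from 91.3, 105 and 73.5 TPM to 172, 149 and 143 TPM (0.78 ± 0.24, adjusted p = 0.0247), where 14.6% of all genes tested rose and 5.27% fell. This call was lost without either of WT D1 replicates 1 and 3 or WT D4 replicates 1 and 2 (adjusted p from 0.0531 to 0.117). Irf1 had the next lowest adjusted p (0.0866), with 19.96, 29.8 and 13.7 TPM on D1 and 54.4, 27.2 and 31.3 TPM on D4. The median difference of the members was 0.01, against 0.17 for all genes. Its sign turned with the libraries used, from -0.33 without WT D1 replicate 3 to 0.36 without WT D1 replicate 2, and it was -0.25 under median-of-ratios scaling.

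From D4 to D7, 29 of 33 members had a lower mean, with a median difference of -0.61 (all genes -0.24). No member was called by limma (adjusted p from 0.0849), where 9.31% of all genes were lower. At an unadjusted p under 0.05, 8 members were lower, beside 26.1% of all genes. The 3 D7 libraries lay below the 3 D4 libraries in 19 members and in 33.2% of all genes. Among these were Oas1a (44.3, 23.9 and 26.9 TPM on D4 and 12.5, 10.2 and 8.49 TPM on D7) and Zbp1 (56.1, 22.2 and 18.4 and 9.55, 8.4 and 8.56 TPM). The 4 members with a higher mean on D7 were Cmpk2, Ifi44, Gbp3 and Gbp7, the last 2 by 0.18 ± 0.41 and 0.30 ± 0.34.

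From D7 to D14, 19 of the 33 members fell and none rose, where 30.9% of all genes fell. In all 33 the 3 D14 libraries lay below the 3 D7 libraries, as they did in 58.9% of all genes. The median difference of the members was -1.26, against -0.45 for all genes, and it was -0.81 and -0.74 under median-of-ratios and quantile scaling, with 7 and 8 members called. Of 15718 genes, these scalings called 1348 and 1225 lower and 802 and 881 higher. The largest falls were those of Isg15 (-2.18 ± 0.60, adjusted p = 0.0153), Oas1a (-2.17 ± 0.57), Zbp1 (-2.09 ± 0.63) and Irf7 (-2.002 ± 0.56). Oas1a was at 12.5, 10.2 and 8.49 TPM on D7 and 1.18, 3.29 and 0.7 TPM on D14, and Zbp1 at 9.55, 8.4 and 8.56 and 1.45, 2.27 and 0.53 TPM. By role, the fall was called in 3 of 4 transcription factors, 1 of 3 IFIT genes, 2 of 4 OAS genes, 1 of 2 genes of the Isg15 system, 2 of 4 guanylate-binding proteins, 2 of 3 sensors, 3 of 6 antiviral effectors and 5 of 7 others. Leaving out 1 library reduced the 19 calls to between 1 (without WT D14 replicate 3) and 14, with 2 without WT D7 replicate 1, 8 without WT D7 replicate 3 or WT D14 replicate 1, and 10 without WT D7 replicate 2. The shares of all genes called in these fits are not given here. The median with each of the 6 libraries left out in turn was between -1.39 and -1.15. With only WT D7 and D14 in the fit, 31 members were called, beside 7476 of 15718 genes called lower.

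Of all genes, 30.9% fell between WT D7 and D14, which stands beside each count that follows. The same interval brought falls of leukocyte markers (9 of 10, summed 459 to 637 TPM on D7 and 55.1 to 182 TPM on D14) and of monocyte and macrophage markers (9 of 12, 1647 to 2171 TPM and 215 to 706 TPM), whose part in the members' fall was not tested. Of the pathway genes, 6 of 9 receptor and signalling genes fell, among them Il10rb (-1.33), Ifnar2 (-1.23) and Ifnar1 (-1.15). Of 16 sensors and adaptors, 9 fell, led by Tmem173 (STING, -1.88). Of the 49 tested among the other interferon-induced genes, 26 fell, led by the chemokine Cxcl10 (-2.52), and 4 of 10 negative regulators fell. None of the genes in these lists rose.

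Set beside the control libraries of the other table, WT D14 libraries lay above all 3 controls in 13 members and below all 3 in none. The median ratio of the WT D14 mean to the control mean was 1.36. In KO D14, 12 members lay above all 3 controls, which are WT, with a median ratio of 1.7. Ifit1 was at 1.48, 2.29 and 1.83 TPM in WT D14 and 0.39, 0.77 and 0.69 TPM in control, with no overlap, and Oas1a at 1.18, 3.29 and 0.7 and 2.17, 1.84 and 1.57 TPM, with overlap. These values come from tables that were quantified separately, and no test was run between them. The share of all genes above the controls and their median ratio were not worked out. A shift of the members thus cannot be told apart from a shift of all genes.

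**Figure D2:**
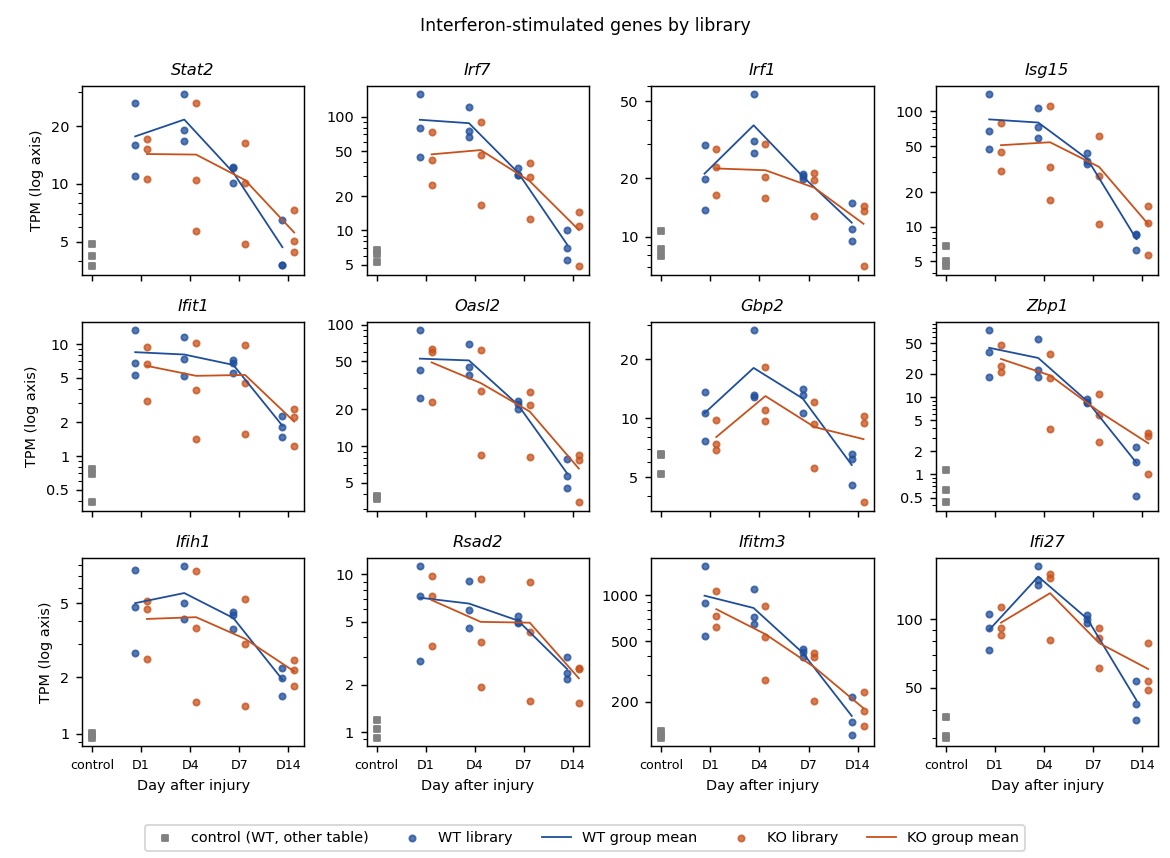
TPM of 12 members in every library, on a log axis, by day after injury. Blue marks WT, orange marks KO, lines join group means over 3 libraries and grey squares are the 3 control libraries of the other table. Most members are highest on D1 and D4 and fall to D14, and the 3 libraries of KO D4 and KO D7 are spread more widely than those of WT D7.

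In KO muscle the group mean was highest on D1 in 21 members, on D4 in 9, on D7 in 1 and on D14 in 2, and lowest on D14 in 29. From D1 to D4, Slfn2 alone was called, falling from 99.4, 61.7 and 115 TPM to 47.9, 10.2 and 31.4 TPM (-1.79 ± 0.55, adjusted p = 0.0312), beside 12.2% of all genes that fell and 7.18% that rose. The median of the members was -0.29 (all genes -0.15). It was 0.08 without KO D4 replicate 2, -0.81 without KO D4 replicate 1, -0.09 without KO D1 replicate 1 and -0.54 without KO D1 replicate 2, and -0.05 under quantile normalization. The Slfn2 call was lost without KO D1 replicate 1 or 3 or KO D4 replicate 2 (adjusted p from 0.0883 to 0.163), and without KO D4 replicate 1 the members called numbered 7. The share of all genes called in that last fit is not given here. Fitted on these groups alone with the replicate number as a block, no member was called and Slfn2 had an adjusted p of 0.0665. Leukocyte markers fell in the same interval (5 of 10 called), as did 6 of 7 neutrophil markers tested, from 309.5 to 3683 TPM to 11.4 to 49.7 TPM summed, and their part in the Slfn2 result was not tested.

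From D4 to D7 in KO muscle no member was called, and 1 (Ifi27, -0.68 ± 0.24) was lower at an unadjusted p under 0.05. Of all genes, 0% were called lower and 7.69% were lower at the unadjusted threshold. No member separated the KO D4 and D7 libraries, against 6.45% of all genes lower on D7. Without KO D4 replicate 2, 3 members were called, and the share of all genes called in that fit is not given here. The median difference was -0.34 (all genes -0.15), and it was 0.12 without KO D4 replicate 1, 0.02 without KO D7 replicate 2 and -0.77 without KO D4 replicate 2. With the replicate number as a block, also on these groups alone, no member was called. From D7 to D14, none was called (lowest adjusted p = 0.146, Mx1), beside 0.477% of all genes called lower. At an unadjusted p under 0.05, 8 members were lower, beside 16.1% of all genes. Groups were separated downward in 2 members (Oas3 and Mx1) and in 25.7% of all genes. Mx1 was at 3.39, 2.46 and 4.38 TPM on D7 and 0.26, 0.77 and 0.34 TPM on D14. The median difference was -0.69, against -0.19 for all genes, and it was -1.15 without KO D7 replicate 2 and -0.35 without KO D7 replicate 3. The WT and KO changes between days were not compared pair by pair, other than by the test of whether the genotype difference varied between days.

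**Figure D3:**
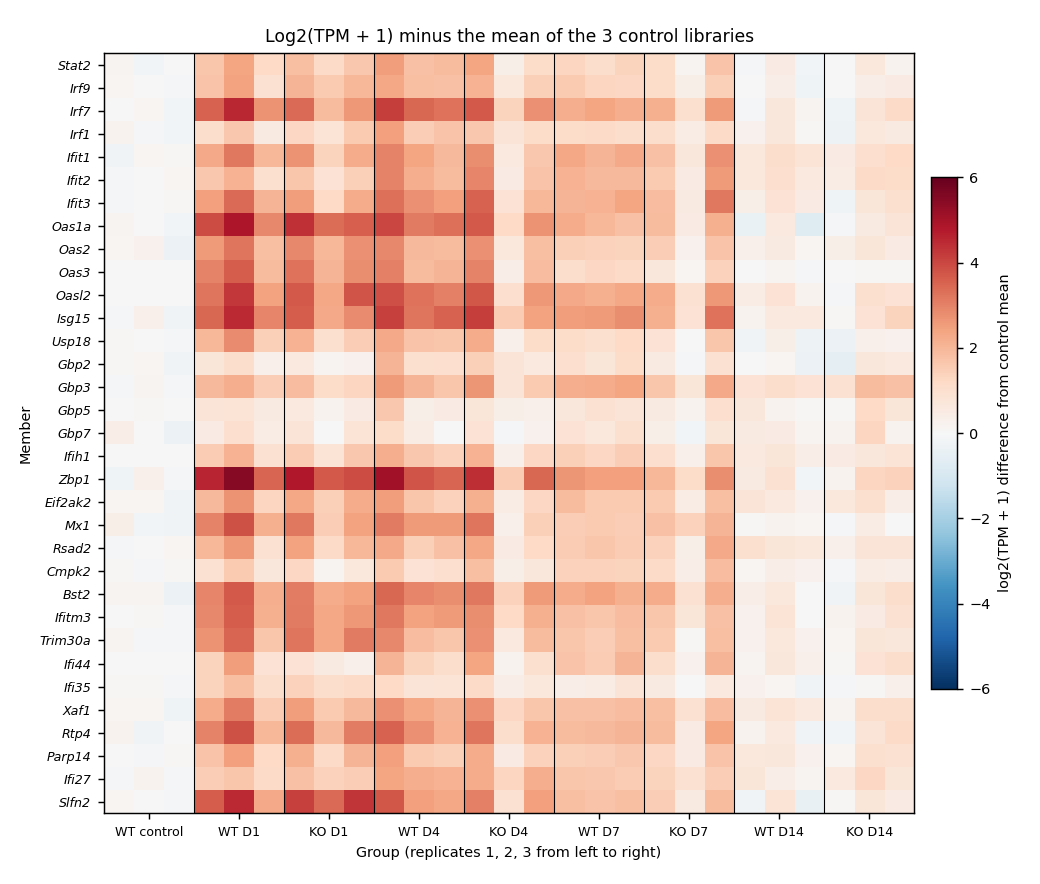
Log2(TPM + 1) of the 33 members (rows) in the 27 libraries (columns, 3 per group) minus the mean of the 3 control libraries, which come from the other table. Red is above and blue below the control mean. In several groups the members move together from library to library, with pale columns for replicate 2 of KO D4 and of KO D7.

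Transcript levels of the members were compared between KO and WT on each day after injury. No uninjured KO library is in the series. A genotype difference present before injury thus cannot be told apart from a difference in the response. No member differed by limma on any day. On D1, 25 of 33 members had a lower mean in KO (35.6% of all genes did), with a median of -0.21 against 0.09 for all genes. None was called (0.00636% of all genes were), none passed an unadjusted p under 0.05 (5.38% of all genes did), and none had separate groups (6.71% of all genes did). The lowest unadjusted p was that of Ifi44, an interferon-induced protein of uncertain function, with 2.65, 7.17 and 1.65 TPM in WT and 1.65, 1.06 and 0.77 TPM in KO (-1.01 ± 0.50, adjusted p = 0.873). Irf7 had 80.6, 158 and 44.5 and 73.4, 25.1 and 41.9 TPM (-0.94 ± 0.56), Isg15 differed by -0.69 ± 0.60 and Usp18 by -0.58 ± 0.45. In Ifi44, WT replicate 3 and KO replicate 1 had the same TPM of 1.65, and in the other genes the genotypes overlapped. The median was 0.10 with library quality weights, 0.11 without WT D1 replicate 2 and -0.54 without WT D1 replicate 3.

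On D4 all 33 members had a lower mean in KO, as did 76.2% of all genes. The median was -0.59, against -0.28 for all genes. None was called (0% of all genes, lowest adjusted p of a member 0.212), 1 passed an unadjusted p under 0.05 (22.7% of all genes), and none had separate groups (14% of all genes). That member was Irf1, with 54.4, 27.2 and 31.3 TPM in WT and 29.99, 15.9 and 20.2 TPM in KO (-0.73 ± 0.32, adjusted p = 0.212). Mx1 had 10.5, 6.6 and 6.75 and 11.01, 0.6 and 2.56 TPM (-1.10 ± 0.53). Irf7 differed by -1.02 ± 0.56 and Stat2 by -0.78 ± 0.43. In all 33 members KO replicate 1 was no lower than the lowest WT library, and KO replicate 2 was below every WT library. The share of all genes with this order is not given here. KO D4 replicate 2 also had fewer genes of at least 1 TPM, 12961 against 13960 to 14704 in the other D4 libraries. A shift of the members in it thus cannot be told apart from a shift of the whole library. Without KO D4 replicate 2 the median was -0.15 (all genes -0.11), with 25 members below 0, and without KO D4 replicate 1 it was -1.01. Under median-of-ratios and quantile scaling the median was -0.32 and -0.34. Leukocyte markers were lower in KO D4 replicate 2 too (mean log2(TPM + 1) of 3.60, against 6.29 and 5.89 in the other KO D4 libraries and 5.78 to 7.29 in WT D4), and their part in the members' difference was not tested.

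On D7, 32 of 33 members had a lower mean in KO (79% of all genes did), with a median of -0.38 against -0.19 for all genes. None was called (0% of all genes) and none passed the unadjusted threshold (3.06% of all genes). Groups were separate in 1 member, Ifi27 (16.5% of all genes), with 105, 100.2 and 96.7 TPM in WT and 83.2, 61.3 and 91.8 TPM in KO (-0.37 ± 0.24, adjusted p = 0.776). The lowest unadjusted p was that of Gbp3, with 9.68, 10.1 and 11.2 and 6.44, 2.88 and 10.4 TPM (-0.71 ± 0.41), followed by Ifi27, Gbp7 (-0.50 ± 0.34) and Gbp2 (-0.49 ± 0.34). KO replicate 2 was the lowest KO library in all 4. That library also had fewer genes of at least 1 TPM, 12849 against 13816 to 14294 in the other D7 libraries. Without KO D7 replicate 2 the median was 0.02, with 15 members below 0, and without KO D7 replicate 3 it was -0.71. With library quality weights it was 0.04.

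On D14, 29 members had a higher mean in KO (71.4% of all genes did), with a median of 0.17 against 0.08 for all genes. The median was 0.04 without KO D14 replicate 2 or 3, 0.07 without WT D14 replicate 3, 0.31 without WT D14 replicate 2 and 0.38 without KO D14 replicate 1. Under median-of-ratios and quantile scaling it was 0.07. None was called (0% of all genes), none passed the unadjusted threshold (2.06% of all genes) and none had separate groups (8.42% of all genes). Ifi27 had the lowest unadjusted p, with 53.8, 42.5 and 36.2 TPM in WT and 48.8, 78.99 and 53.8 TPM in KO (0.43 ± 0.24). Gbp3 was at 3.27, 3.85 and 3.32 and 3.38, 7.78 and 6.96 TPM (0.59 ± 0.41), and Gbp5 and Oas1a differed by 0.34 ± 0.30 and 0.57 ± 0.57. In Gbp3 KO replicate 1 lay inside the WT range and the other KO libraries above it.

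Averaged over the 4 days, all 33 members were lower in KO (72.5% of all genes were), between -0.51 (Irf7) and -0.03 (Ifi27), with a median of -0.24 against -0.07 for all genes. None was called (0.00636% of all genes) and none passed the unadjusted threshold (3.54% of all genes). The lowest p were those of Irf7 (-0.51 ± 0.28, exact two-sided permutation within days, p = 0.109), Ifi44 (-0.41 ± 0.25), Isg15 (-0.46 ± 0.30) and Ifit1 (-0.39 ± 0.26). The SE of these averages, up to 0.32, leaves differences of this size undecided, and an adjusted p above the threshold does not show that the genotypes were alike. With library quality weights, which give less weight to libraries far from their group, the median was -0.01 and 17 members were lower. The F test of whether the genotype difference varied between days called no member (0% of all genes, lowest adjusted p 0.527), and none passed its unadjusted threshold (7.65% of all genes).

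**Figure D4:**
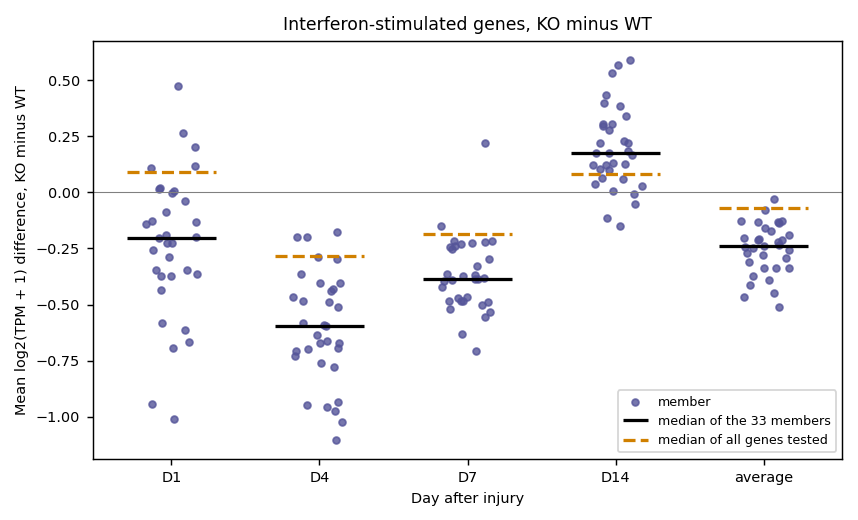
Difference in mean log2(TPM + 1) between KO and WT for each of the 33 members (points) on each day and averaged over days. Black bars are the members' median and orange dashed bars the median of all 15718 genes tested. The members' median lies below that of all genes on D1, D4 and D7 and above it on D14, an order that turned on D7 with quality weights or without KO D7 replicate 2 and on D14 without KO D14 replicate 3, and none of the differences was called.

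The pathway genes gave the same count of calls between genotypes. No receptor or signalling gene, sensor, negative regulator or other interferon-induced gene was called on any day or on average. On D4, where 22.7% of all genes passed an unadjusted p under 0.05, 2 of 9 receptor and signalling genes were lower in KO at that threshold, Ifnar2 (-0.91, adjusted p = 0.212) and Ifnar1 (-0.84, adjusted p = 0.212), which together form the type I receptor. Of 16 sensors and adaptors 2 were lower at that threshold on D4, of 10 negative regulators 2, and of 49 other interferon-induced genes 4, and none of these lists had a share above that of all genes. Of the T and NK cell markers, which include the main producers of interferon gamma, 9 were tested and none was called on any day or on average. At the unadjusted threshold 3 were lower in KO on D1 (Nkg7, Gzma and Gzmb, beside 5.38% of all genes), 5 on D4 (beside 22.7%), none on D7 or D14, and 5 on average (Cd4, Nkg7, Ncr1, Klrb1c and Gzma, beside 3.54%). Gzma, a granzyme of cytotoxic lymphocytes, differed by -1.44 on D1 and -1.30 on D4, without overlap on either day. The summed markers were 10.2 to 39.5 TPM in WT and 8.14 to 13.6 TPM in KO on D1, and 19.4 to 48.4 TPM and 3.41 to 19.96 TPM on D4. Their part in the members' differences was not tested.

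Across libraries, the members' mean log2(TPM + 1) was lowest and highest in libraries that were also low and high in the leukocyte markers. Control libraries had 2.05 to 2.18 for the members and 2.33 to 2.51 for the leukocyte markers. WT D1 replicates 1, 2 and 3 had 4.36, 5.06 and 3.71 for the members and 6.72, 7.50 and 5.07 for the markers. KO D1 libraries had 3.65 to 4.57 for the members and 6.49 to 7.66 for the markers. The members' mean minus the markers' mean was -2.36, -2.43 and -1.36 in WT D1 and -2.72, -2.84 and -3.43 in KO D1, without overlap. On the other days the genotypes overlapped in this difference, with WT D4 at -2.35, -2.06 and -1.71 and KO D4 at -1.55, -0.74 and -2.12. With 3 against 3 libraries an exact permutation test cannot go below p = 0.1, and this difference was picked after its values were seen, so that it was not tested. KO D7 replicate 3 had the highest members' mean of KO D7 (4.05) with markers of 4.72, whereas replicate 1 had 3.55 with markers of 4.86.

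**Figure D5:**
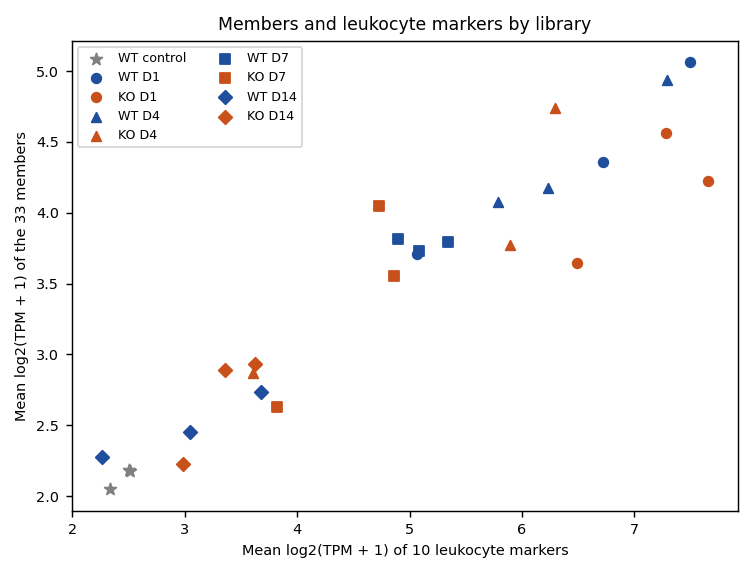
Mean log2(TPM + 1) of the 33 members against that of 10 leukocyte markers, 1 point per library, with color for genotype and shape for day. The points run from the 3 controls at the lower left to WT D1 replicate 2 at the upper right, with the KO D1 libraries to the right of WT D1 libraries of like height.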

How the data were processed

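Libraries were prepared with a SMARTER mRNA kit, per the labels. The authors deposited TPM per gene in 2 tables quantified separately, 1 with 24 injured libraries and 1 with WT D1 and control (mm10 per the submitters' processing notes). The aligner and counter are not given in the sources used here. TPM keep no read numbers, so that no counting interval could be given. Here log2(TPM + 1) was fitted with limma 3.58.1 in R 4.3.3 on group means with a mean-variance trend, over genes of at least 1 TPM in at least 3 libraries, with Benjamini-Hochberg adjustment over all genes tested and a threshold of 0.05. The script was tested on simulated data. Groups have 3 libraries, and whether each came from its own mouse is not stated in the labels, so that p-values measure the spread between these libraries. Members and gene lists were chosen with earlier results of these data known. Genes were named by role (20 members), with those of lowest p in each genotype comparison and those called between days. Same-numbered libraries deviated together in KO D1 and D4 (r = 0.192, 0.377 and 0.255) and in KO D4 and D7 (r = 0.283, 0.442 and 0.130). These groups were picked after the correlations were seen, and the labels pair no libraries across days. With 3 libraries per group a like order can arise without pairing, so that the block there is a check only. Alternatives were another pseudocount, other filters and scalings, library quality weights, the replicate block, only the compared groups and leaving out each library. Not every gene of the pathway lists is reported here by name.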

Additional observations from a re-analysis of the deposited data

How the results depend on the processing

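Counts of all genes in this section are those called in either direction, and those without 1 library are not given here. The count of members called by limma between genotypes was 0 on every day and on average under every alternative run. With quality weights, 2737, 1499, 59 and 44 of 15718 genes were called on D1, D4, D7 and D14, and 120 on average. WT D1 against control kept between 23 (all members tested at a minimum of 5 TPM) and 33 calls, and 27 to 31 without 1 library. Of all genes, 5781 of 8828 were called at a minimum of 5 TPM and 9981 of 13041 with quality weights. For WT D4 against D1 the count of 1 became 2 with median-of-ratios scaling, 3 with quantile normalization, 7 with quality weights, 0 with only the compared groups and 0 to 2 without 1 library. Of 15718 genes, the scalings, the weights and the compared groups called 3916, 3833, 7417 and 1163 in that order. For WT D7 against D4 the count of 0 became 15 with quality weights and 5 with only the compared groups, beside 7842 and 908 of 15718 genes. For WT D14 against D7 the count of 19 became 7 without a filter, 7 with median-of-ratios scaling, 8 with quantile normalization, 31 with quality weights, 31 with only the compared groups and 1 to 14 without 1 library. All genes called were 3382 of 33258 without a filter. Of 15718 genes, the scalings, the weights and the compared groups called 2150, 2106, 8868 and 7940 in that order. For KO D4 against D1 the count of 1 became 0 without a filter, 3 with median-of-ratios scaling, 3 with quantile normalization, 17 with quality weights, 0 with only the compared groups and 0 to 7 without 1 library. All genes called were 2419 of 33258 without a filter. Of 15718 genes, the scalings, the weights and the compared groups called 4133, 4204, 8093 and 52 in that order. For KO D7 against D4 the count of 0 became 5 with quality weights, beside 5277 of 15718 genes, and 0 to 3 without 1 library. For KO D14 against D7 the count of 0 became 29 with quality weights, beside 6667 of 15718 genes. The difference of Gbp7 between WT D1 and control was -0.12 under quantile normalization. The median difference for WT D1 against control was 2.63 with a pseudocount of 0.1, and that for WT D14 against D7 was -1.47. With quality weights the KO minus WT median was 0.10 on D1 and 0.04 on D7. These weights were estimated gene by gene, since the default estimate did not converge. The causes of these changes were not tested.

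With the replicate block, 17 members were called for WT D14 against D7 and 31 for WT D1 against control. All genes called were 5024 of 15718 and 6952 of 13041. For KO D4 against D1 and KO D7 against D4 the block was also restricted to the compared groups, a choice made after seeing the data. It called 0 members in each, beside 8 and 0 of 15718 genes. In every pair of groups the labels give the samples only a shared number. TPM carry no depth, so that no limit of detection could be set for low genes.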
